A study of Cnaphalocrocis medinalis with 6 samples.

Results

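The hairpins described here are the 40 less abundant of the 44 microRNA hairpins counted in Cnaphalocrocis medinalis, the rice leaf folder. The caterpillars of this moth fold and eat rice leaves. For each hairpin identifier, the row with the larger read count summed over the libraries was kept, and hairpins whose kept row held fewer than 500000 reads were taken as members. The members were therefore chosen by their measured abundance over both stages together. The most abundant member had 200048 reads, and the least abundant hairpin left out had 1189421, 5.95 times as many, so no hairpin lay close to the limit. The least abundant member had 24 reads.

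Small RNA was sequenced from whole bodies in 2 groups, larvae in the fifth instar and pupae, with 3 libraries each. The protocol names 2 larvae and 2 pupae for extraction and calls the replicates biological. No strain, sex, age within the stage or treatment is given, and both groups are unmanipulated as far as the labels say. If the libraries of a stage shared animals, the SDs and p-values below measure only the spread between libraries. In whole-body RNA, fewer cells of a type and less RNA per cell cannot be told apart.

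A microRNA is cut from a hairpin-shaped transcript and guides an Argonaute protein to messenger RNAs that pair with its seed, which lowers their translation or stability. In insects with complete metamorphosis the pupal stage is when larval tissues are broken down and adult tissues are built, and in Drosophila melanogaster some microRNAs are known to be switched on at this transition by the moulting hormone ecdysone. The 4 hairpins above the limit took most reads of every library, so a scale set by all reads is a scale set by them. Values here are reads per 10000 member reads, where member reads are the summed reads of the 40 hairpins in that library.

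The identifiers pair with no microRNA names, and no row states an arm, a sequence or coordinates. No role can therefore be given to any hairpin, no sequence is shown, and the labelled stage could not be checked against known stage markers. Hairpins are called by their rank from 1 to 40 by summed reads. Identifiers are printed for the 2 largest rises and the 2 largest falls among hairpins that passed the test and were separated between stages in every library. The hairpins ranked 23 and 24 had identical counts in every library, so a read may have been counted once on each.

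The files held 536524 to 2411261 reads per library, of which member reads were 96889, 79315 and 170361 in larval libraries 1 to 3 and 79083, 92821 and 56039 in pupal libraries 1 to 3. One read thus stood for 0.0587 to 0.178 per 10000 member reads. The 95% Wilson interval of a single library's value reached at most 6.38% of the value to each side for ranks 1 to 9 and 22.3% for ranks 10 to 25, and was wider than the value itself in places below that. These intervals cover counting error only. At least 10 reads in every library were found for 32 of the 40 hairpins, at least 100 for 23 and at least 1000 for 8. The hairpin ranked 40 was at 0 in pupal library 3, where 3 reads stand for 0.535 per 10000 member reads. Its 95% Wilson interval in that library reached up to 0.685.

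The 40 hairpins made up a larger part of the hairpin reads in every pupal library than in any larval one. Member reads were 8.65%, 8.30% and 7.08% of the larger-row reads in larval libraries 1 to 3, with 95% Wilson intervals of 8.60 to 8.70%, 8.24 to 8.35% and 7.05 to 7.12%. In pupal libraries 1 to 3 they were 10.1%, 9.52% and 10.5%, with intervals of 10.04 to 10.17%, 9.46 to 9.57% and 10.41 to 10.58%. The means were 8.01% ± 0.822 and 10.04% ± 0.494 (SD, n = 3), and the stages did not overlap. The difference of 2.03 percentage points had an exact two-sided permutation p of 0.1, the smallest that 3 libraries against 3 can give, and 0.23 after Benjamini-Hochberg adjustment over the 7 shares and counts compared in this way.

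Within the 40 hairpins abundance fell steeply with rank and ran over a range of 8335 to 1 in summed reads. By decade of summed reads they formed 5 tiers. The sums are of raw reads, so libraries with more reads weighed more in the ranks and tiers. Larval library 3 gave 170361 of the 574508 member reads, and pupal library 3 gave 56039. A hairpin high in larvae could thus be placed higher, and the tier shares compared below come from these same counts. The top tier, with 100000 reads or more, held only ranks 1 and 2 and 58.7% of the member reads. The second, from 10000 to under 100000 reads, held ranks 3 to 9 and 30.9%. The third, from 1000 to under 10000 reads, held 16 hairpins and 9.84%, the fourth, from 100 to under 1000 reads, 10 hairpins and 0.594%, and the lowest, under 100 reads, 5 hairpins and 0.0399%. Between 9 and 10 hairpins were enough for 90% of the member reads in larval libraries and 9 in each pupal library (exact permutation p = 1.0).

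**Figure D1:**
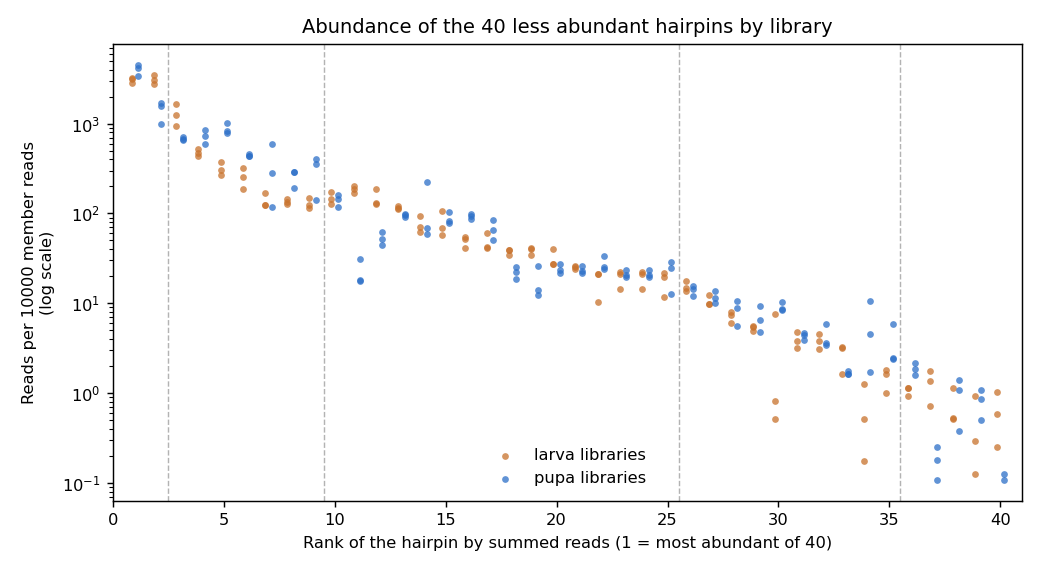
Reads per 10000 member reads (log axis) in each library for the 40 hairpins, ordered by rank by summed reads; points are libraries, larval and pupal libraries are coloured apart and dashed lines part the 5 tiers. The pupal points of rank 11 lie far below its larval points, the larval points of ranks 30 and 34 are spread widely, and the library with 0 reads at rank 40 is not drawn.

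In every pupal library the top tier held less of the member reads, and the second tier more, than in any larval library. The 2 hairpins of the top tier went opposite ways, so its lower share in pupae was that of rank 2. The mean of rank 1 was 3051 per 10000 member reads in larvae and 4040 in pupae. That of rank 2 was 3102 in larvae and 1430 in pupae. The top tier held 62.9%, 62.7% and 59.0% of the member reads in larval libraries 1 to 3 and 58.8%, 55.2% and 50.1% in pupal libraries 1 to 3. The gap was narrow, as larval library 3 and pupal library 1 lay 0.16 percentage points apart. The second tier held 26.7%, 25.6% and 29.7% in larvae and 32.4%, 34.2% and 41.4% in pupae. The mean of the top tier was 61.5% ± 2.22 in larvae and 54.7% ± 4.37 in pupae, and that of the second tier 27.3% ± 2.11 and 36.0% ± 4.77 (SD, n = 3). Both differences had an exact permutation p of 0.1 and an adjusted p of 0.23. The difference in the top tier, -6.82 percentage points, was -4.52 without pupal library 3 and -12.9 when rank 3 was added by starting the tier at 50000 reads. Rank 3 was also lower in pupae, with a mean of 677 per 10000 member reads against 1287 in larvae.

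In the lower tiers the libraries of the stages overlapped. The third tier held 10.5% ± 0.628 in larvae against 8.57% ± 1.14 in pupae (n = 3, SD; p = 0.2 in the exact permutation test), and pupal library 2, at 9.85%, lay inside the larval range. The fourth held 0.541% ± 0.0527 and 0.696% ± 0.0945 (exact permutation p = 0.2). The lowest tier held 0.0415% ± 0.00392 and 0.0388% ± 0.00449 (exact permutation p = 0.5). Adjusted over the same 7 measures, these p-values were 0.28, 0.28 and 0.58.

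**Figure D2:**
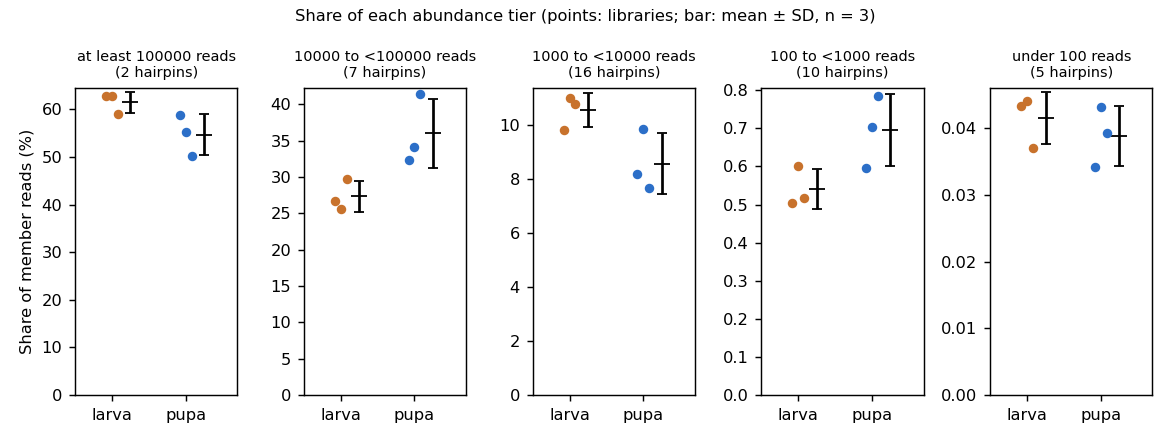
Share of the member reads (%) held by each abundance tier in larvae and pupae, each panel on its own axis from 0; points are libraries and the bar gives the mean and SD of 3 libraries. The top tier is lower in every pupal library (50.1 to 58.8%) than in every larval library (59.0 to 62.9%), and the second tier is higher (32.4 to 41.4% against 25.6 to 29.7%).

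The order of the hairpins was largely shared by the stages. Across the 40 hairpins Spearman's rho of the counts was 0.971 to 0.989 between libraries of one stage (6 pairs) and 0.921 to 0.962 between libraries of different stages (9 pairs). These are descriptions over hairpins counted in the same libraries. By mean level 17 hairpins held a position within 1 of each other in the stages, and 5 moved by 5 positions or more. The 10 highest positions were filled by 8 hairpins common to both stages. The largest move was that of Chr13_8751, from position 7 in larvae to 21 in pupae. Chr1_1523 moved from 9 to 16 and rank 19 from 18 to 25, while rank 22 moved up from 25 to 17 and Chr16_619 from 38 to 31.

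Of the 40 hairpins 36 passed the filter on low counts. Between the stages 13 of these changed at an adjusted p under 0.05 (edgeR quasi-likelihood test scaled to member reads). In pupae 7 were higher and 6 were lower. The hairpins tested in the series were the 36 and the 4 most abundant ones, 40 in all. Of these tested hairpins 37.5% were called, 17.5% as higher and 20% as lower. The share called among the less abundant hairpins thus lay near that of the whole table. The median log2 fold change was 0.17 over all tested hairpins and 0.21 over the 36. Fold changes of at least 2 were fitted for 3 of the higher and 4 of the lower hairpins. For 12 of the 13 the libraries of the stages did not overlap, and rank 9 was the exception. Since the 13 were picked by a test on the same counts, this is no further support for them. Over all 44 hairpins of the series 52.3% did not overlap.

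How many hairpins were called in each direction depended on the scale. With the total of all rows in the file as library size 11 were higher and 2 lower, with upper-quartile factors 1 and 12, and with ranks 1 and 2 left out of the member reads 3 and 6. Under these scales the median over all hairpins tested moved on the log2 scale to 0.50, -0.73 and -0.055, and it was 0.36 with TMM and 0.11 with RLE factors. All 6 lower calls and 4 of the 7 higher calls kept their sign under the 5 other scales, and 3 of the 13 (2 lower, 1 higher) also kept their call under all of them. The higher one was Chr16_619, with only 5, 10 and 3 reads in larval libraries 1 to 3. It met the filter on low counts only through the pupal libraries, where it is high. Its call was lost without larval library 1 or 3 or pupal library 3. Without larval library 1 the calls were 2 higher and 4 lower, without larval library 3 they were 2 and 3, and without pupal library 3 they were 3 and 4.

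**Figure D3:**
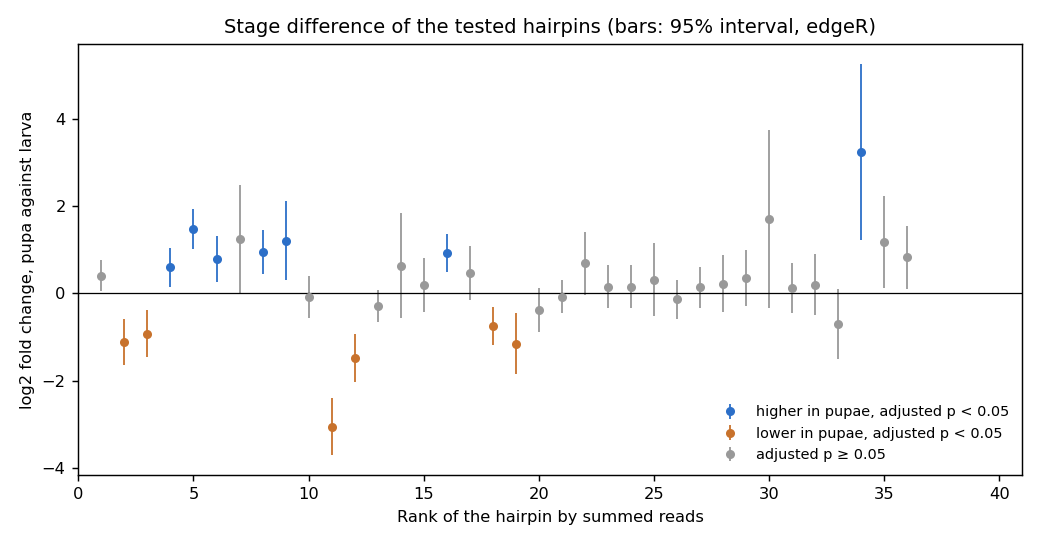
Log2 fold change of pupae against larvae, scaled to member reads, for the 36 hairpins tested, by rank; points are edgeR estimates, bars their 95% intervals and colours the calls at an adjusted p under 0.05. The calls lie mostly among ranks 2 to 19, with ranks 4, 5, 6, 8 and 9 above 0 and ranks 11 and 12 far below it.

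By mean level the 2 most abundant members stood close together in larvae and far apart in pupae. The hairpin ranked 1 stood at 2801, 3237 and 3114 per 10000 member reads in larval libraries 1 to 3 and at 4174, 4522 and 3426 in pupal libraries 1 to 3. All pupal values were higher, but the log2 fold change of 0.41 (SE 0.15) did not pass the test (edgeR adjusted p = 0.066). It passed with TMM factors (0.58, edgeR adjusted p = 0.010), with file totals (0.73, edgeR adjusted p = 0.0056) and in DESeq2 with its own size factors (0.33, adjusted p = 0.034), and turned negative with upper-quartile factors (-0.47).

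The hairpin ranked 2 stood at 3487, 3036 and 2781 in larvae and at 1706, 1000 and 1584 in pupae. Every pupal library lay below every larval one, and the hairpin fell by 1.12 on the log2 scale (SE 0.23, edgeR adjusted p = 0.012), or 2.17-fold. The call ended with file totals (log2 fold change -0.79, edgeR adjusted p = 0.053). The ratio of the counts of rank 1 to rank 2 needs no scale. It was 0.803, 1.07 and 1.12 in larvae and 2.45, 4.52 and 2.16 in pupae, without overlap, so that rank 1 led in every pupal library but only in larval libraries 2 and 3. Such a lack of overlap was common, found in 50.9% of all pairs of tested hairpins.

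Of the 7 hairpins of the second tier 5 rose, 1 fell and 1 did not pass the test, beside 17.5% higher and 20% lower over all tested hairpins. Their median log2 fold change was 0.94. The number that rose was 2 with replicate number added as a block, 4 in limma-voom and 6 in DESeq2 with the same scale. It was 1 with ranks 1 and 2 left out of the scale, 3 with RLE factors and 0 with upper-quartile factors, where 2 of the 5 had a negative value. It was also 1 without larval library 1 or 3, 3 without larval library 2 or pupal library 2, and 2 without pupal library 3. The one that fell, rank 3, stood at 1262, 931 and 1669 in larvae and at 673, 708 and 652 in pupae. Its larval libraries were spread widely and its pupal libraries narrowly, without overlap. The log2 fold change was -0.93 (SE 0.23, edgeR adjusted p = 0.024), and the call ended without larval library 1 or 3 or pupal library 1 or 3 (edgeR adjusted p = 0.050 to 0.064) and with file totals (0.057).

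Chr1_1832, ranked 5, had the second largest rise among the called hairpins. It stood at 304, 369 and 269 per 10000 member reads in larval libraries 1 to 3 and at 778, 830 and 1008 in pupal libraries 1 to 3. The lowest pupal library thus held over 2 times the level of the highest larval one. The rise was 2.78-fold (1.47 ± 0.20 on the log2 scale, estimate ± SE, edgeR adjusted p = 0.0026), or 1.30 above the median of all tested hairpins on the log2 scale. It passed the test without each library in turn (log2 fold change 1.36 to 1.61), and missed it with upper-quartile factors (0.56, edgeR adjusted p = 0.10).

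Rank 4 stood at 435, 520 and 471 in larvae and at 593, 731 and 842 in pupae. Rank 6 stood at 256, 324 and 189 in larvae and at 432, 439 and 455 in pupae. Rank 8 stood at 127, 144 and 134 in larvae and at 292, 291 and 193 in pupae. In each of these the stages did not overlap, and the 3 hairpins rose by log2 fold changes of 0.60, 0.79 and 0.94 (SE 0.19, 0.23 and 0.22, edgeR adjusted p = 0.040, 0.036 and 0.021).

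These rises lost their calls in more alternatives than that of Chr1_1832. Rank 4 lost its call without any one library except pupal library 1 (edgeR adjusted p = 0.052 to 0.13), and rank 6 without any one except larval library 2 (0.059 to 0.094). Rank 8 lost it without larval library 1 or 3 (0.061 and 0.062). With ranks 1 and 2 left out of the scale all 3 missed the threshold (edgeR adjusted p = 0.21, 0.14 and 0.069), and so they did with upper-quartile factors, where ranks 4 and 6 turned negative (-0.32 and -0.097). Rank 4 also missed it with RLE factors (edgeR adjusted p = 0.053). With replicate number added as a block ranks 4 and 6 missed it (edgeR adjusted p = 0.11 and 0.073), and rank 8 kept its call (0.049).

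Ranks 7 and 9 were uneven among pupae. Rank 7 stood at 167, 124 and 124 in larvae and at 118, 280 and 588 in pupae, so that the pupal libraries differed 4.98-fold and pupal library 1 lay below all larval libraries. Its log2 fold change of 1.25 (SE 0.53) did not pass the test (edgeR adjusted p = 0.092). It was 1.65 and passed without pupal library 1 (edgeR adjusted p = 0.016), and 0.53 without pupal library 3. It also passed in DESeq2 with the same scale (adjusted p = 0.017).

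Rank 9 stood at 123, 149 and 115 in larvae and at 352, 141 and 402 in pupae. Pupal library 2 lay inside the larval range. The hairpin was called higher (1.21 ± 0.38 on the log2 scale, edgeR adjusted p = 0.040), but only the fit without pupal library 2 kept the call when 1 library was left out (edgeR adjusted p = 0.071 to 0.11 in the others). The call also ended under RLE scaling (0.053), under upper-quartile scaling (0.58), with ranks 1 and 2 left out of the scale (0.070) and in limma-voom (adjusted p = 0.063). It ended too with replicate number added as a block (edgeR adjusted p = 0.077).

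The third tier held the 2 largest falls among the called hairpins. Of its 16 hairpins 4 fell, 1 rose and 11 did not pass the test, a share called near the 37.5% of all tested hairpins, and the median log2 fold change was 0.035. Rank 10 stood at 129, 145 and 173 in larvae and 145, 160 and 117 in pupae, with overlap, and did not pass the test (log2 fold change -0.082, 95% interval -0.56 to 0.40), though with upper-quartile factors it passed as lower (-0.97, edgeR adjusted p = 0.017).

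Chr13_8751, ranked 11, had the largest fall of all tested hairpins. It stood at 185, 201 and 168 per 10000 member reads in larval libraries 1 to 3 and at 30.9, 18.1 and 17.5 in pupal libraries 1 to 3, from 1792, 1597 and 2860 reads and from 244, 168 and 98 reads. The lowest larval library held over 5 times the level of the highest pupal one. The fall was 8.32-fold (-3.06 ± 0.28 on the log2 scale, estimate ± SE, edgeR adjusted p = 0.00037), or -3.23 against the median of all tested hairpins.

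Chr1_1523, ranked 12, stood at 132, 126 and 185 in larvae and at 44.5, 61.4 and 52.5 in pupae. The stages were far apart relative to the spread within each. The fall was 2.80-fold (-1.49 ± 0.23 on the log2 scale, estimate ± SE, edgeR adjusted p = 0.0042), or -1.66 against the median. Both hairpins passed the test in the same direction in all 20 alternatives run, with log2 fold changes of -3.94 to -2.74 for Chr13_8751 and -2.40 to -1.15 for Chr1_1523 over the 5 other scales.

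Ranks 18 and 19 fell from a lower level. Rank 18 stood at 38.7, 34.3 and 39.1 in larvae and at 18.7, 25.6 and 22.3 in pupae. Rank 19 stood at 40.6, 41.4 and 34.5 in larvae and at 25.7, 12.4 and 13.9 in pupae, where pupal library 1 was the highest. Neither overlapped between stages, and their log2 fold changes were -0.75 and -1.16 (SE 0.18 and 0.30, edgeR adjusted p = 0.024 and 0.025). Rank 18 lost its call without larval library 1 or 3 or pupal library 3 (edgeR adjusted p = 0.061 to 0.077), rank 19 without any one library except pupal library 1 (0.052 to 0.073), and both with file totals (0.098 and 0.075). With replicate number added as a block rank 18 lost its call (edgeR adjusted p = 0.058) and rank 19 kept it (0.024).

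Rank 16 was the one hairpin of this tier that rose. It stood at 54.8, 40.7 and 51.8 in larvae and at 85.9, 94.5 and 98.7 in pupae. The stages did not overlap and the pupal libraries lay close together. The log2 fold change was 0.92 (SE 0.19, edgeR adjusted p = 0.012), passed the test without each library in turn, and was -0.0069 with upper-quartile factors.

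**Figure D4:**
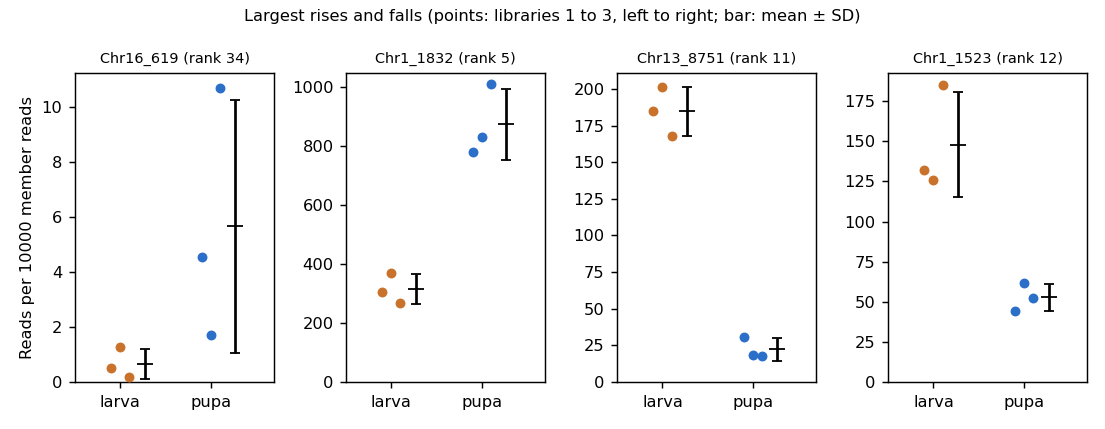
Reads per 10000 member reads in larvae and pupae for 4 called hairpins, each panel on its own axis from 0. Among called hairpins without overlap between stages, Chr16_619 and Chr1_1832 had the 2 largest rises and Chr13_8751 and Chr1_1523 the 2 largest falls. Points are libraries and the bar gives the mean and SD of 3 libraries. The stages do not overlap in any panel, and the pupal libraries of Chr16_619 are spread from 1.72 to 10.7.

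In the fourth tier 1 hairpin of 10 passed the test, as higher, beside 37.5% called and 17.5% higher over all tested hairpins. Higher calls were 3 with replicate number added as a block, 2 in limma-voom or with file totals, and 0 without larval library 1 or 3 or pupal library 3. With upper-quartile factors 1 was higher and 2 were lower, and without larval library 2 these were 2 and 1. The hairpin called in the main fit was Chr16_619, ranked 34. It met the filter on low counts only through the pupal libraries, where it is high, and its call was the same without the filter (edgeR adjusted p = 0.021). It rested on 5, 10 and 3 reads in larval libraries 1 to 3 and on 36, 16 and 60 in pupal libraries 1 to 3, or 0.516, 1.26 and 0.176 and 4.55, 1.72 and 10.7 per 10000 member reads. All pupal values were higher, but larval library 2 and pupal library 2 lay close together. The fitted rise was 9.47-fold (3.24 ± 0.86 on the log2 scale, estimate ± SE, edgeR adjusted p = 0.026), with a 95% interval of 1.22 to 5.27 on the log2 scale. Relative to the median of all tested hairpins it was 3.07. The call held under all 5 other scales and ended without larval library 1 (edgeR adjusted p = 0.068), larval library 3 (0.080, log2 fold change 2.64) or pupal library 3 (0.064, log2 fold change 2.43). Without larval library 2 the log2 fold change was 4.08.

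The other 9 hairpins of the fourth tier did not pass the test. Rank 30, named here after its values were seen, stood out by its larval libraries. It had 5, 61 and 14 reads there and 66, 97 and 49 in pupae, or 0.516, 7.69 and 0.822 against 8.35, 10.5 and 8.74 per 10000 member reads. Larval library 2 was near the pupal level and the other 2 larval libraries were far below it, a 14.9-fold range within one stage. The log2 fold change was 1.71 with a 95% interval of -0.33 to 3.74 (edgeR adjusted p = 0.15).

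In the lowest tier 1 of the 5 hairpins passed the filter, rank 36, with a log2 fold change of 0.82 (SE 0.30, edgeR adjusted p = 0.066). Like Chr16_619 and ranks 30 and 35, it met the filter only through the pupal libraries, where it is high. The other 4 did not pass the filter. Rank 37 had 7, 14 and 23 reads in larvae and 2, 1 and 1 in pupae. Rank 38 had 5, 9 and 9 reads in larvae and 3, 13 and 6 in pupae. Rank 39 had 9, 1 and 5 reads in larvae and 4, 8 and 6 in pupae. Rank 40 had 10, 2 and 10 reads in larvae and 1, 1 and 0 in pupae. Ranks 37 and 40 had lower values per 10000 member reads in every pupal library than in any larval one, whereas ranks 38 and 39 overlapped. When the filter was left out, rank 37 passed the test (log2 fold change -2.76, edgeR adjusted p = 0.018) and rank 40 did not (-2.69, edgeR adjusted p = 0.052). The calls were then 7 higher and 7 lower.

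Counted over all 40 hairpins on this scale, the libraries of the stages did not overlap for 20, with pupae above larvae in 11 and below in 9. The same held for 52.3% of all 44 hairpins of the series, with 25% above and 27.3% below, so this share is close to that of the whole table. With file totals the counts were 19 above and 7 below, and with ranks 1 and 2 left out of the scale 8 and 12.

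Ratios between hairpins within a library do not depend on any scale, and were examined after the fold changes had been seen. Over all pairs of the 40 tested hairpins of the series, the ratio did not overlap between stages in 50.9%. Chr13_8751 fell against all 39 others in this sense, and Chr1_1523 fell against 36 and rose against 1. Rank 2 fell against 31, and ranks 18 and 19 fell against 29 each. Chr1_1832 rose against 31 and fell against none, Chr16_619 rose against 27 and fell against none, and rank 16 rose against 23 and fell against none. Rank 4 rose against 18 and fell against 1, and rank 9 rose against 14 and fell against 1. Ranks 6 and 8 rose against 21 each and fell against 2 and 1, and rank 3 fell against 26 and rose against 2. Some hairpins that were not called had counts as high as some called ones. Ranks 30 and 35 rose against 20 each and fell against none, and rank 36 rose against 20 and fell against 1. Ranks 1 and 22 rose against 15 each and fell against 3 and 1. The count of Chr1_1832 was 1.65, 1.83 and 1.60 times that of Chr13_8751 in larval libraries 1 to 3 and 25.2, 45.9 and 57.6 times in pupal libraries 1 to 3. This pair was chosen by its fitted fold changes, the second largest rise over the largest fall. Its gap between stages is therefore no further support for either call.

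**Figure D5:**
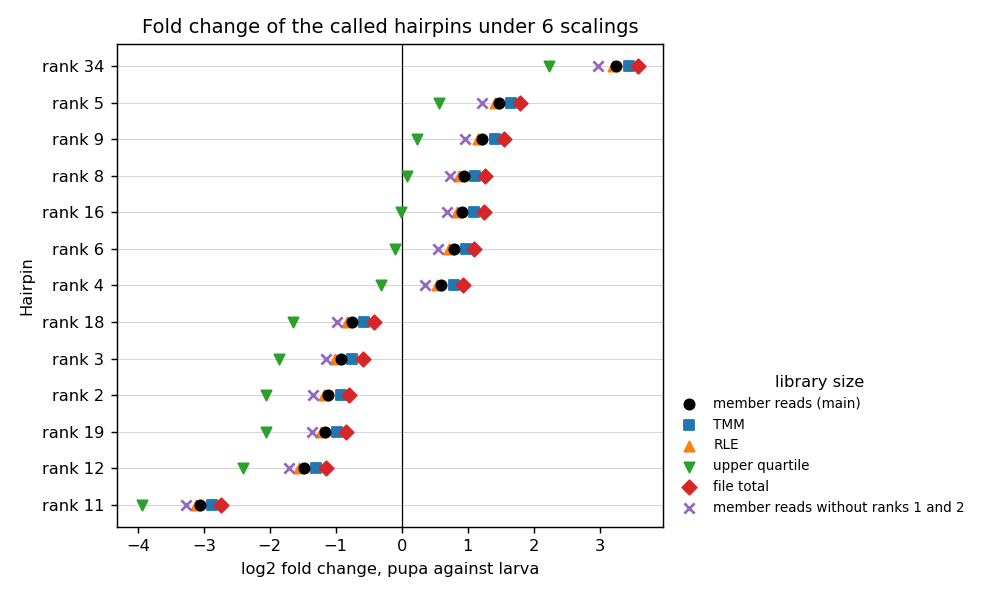
Log2 fold change of pupae against larvae for the 13 hairpins called on the member-read scale, by rank, under that scale and 5 others; each symbol is one way to set the library size. Each change of scale moved all 13 the same way, and the 6 falls and ranks 34, 5, 9 and 8 stay on their side of 0 under all 6, while ranks 16, 6 and 4 cross it with upper-quartile factors.

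The 23 hairpins that did not pass the test had log2 fold changes of -0.71 to 1.71. The half-width of their 95% interval was 0.35 to 2.04 with a median of 0.62, and for 14 of the 23 the whole interval lay within 1 on either side of 0. For the other 9 a change of 2-fold or more was not excluded by the interval. In the 36 tested hairpins the coefficient of variation between libraries of a stage had a median of 17.2% in larvae and 15.6% in pupae. Libraries of one stage differed by 2-fold or more in 3 hairpins in larvae and in 7 in pupae. Rank 14, also named after its values were seen, had 224 per 10000 member reads in pupal library 2 and 59.7 and 69.2 in pupal libraries 1 and 3, against 62.8, 94.6 and 70.3 in larvae.

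The 40 identifiers carried 21 chromosome labels. The label of chromosome 1 was the most frequent, on 9 hairpins with 13.0% of the member reads, and 7 of these were tested. Of the 7, 3 rose (ranks 5, 6 and 9), 1 fell (rank 12) and 3 did not pass the test, beside 37.5% called over all tested hairpins. Chromosome labels 12 and 10, on 2 hairpins each, held 36.8% and 24.1% of the member reads, since they include ranks 1 and 2. Each hairpin also had a smaller row, and the smaller rows of the 40 hairpins together added 13357 reads to 574508, or 1.84 to 3.10% of both rows in a library.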

How the data were processed

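Per the file names, the authors deposited the output of the miRDeep2 Quantifier. The version and settings, the genome assembly and the origin of the hairpin list are all not given in the sources used here. Every file lists 88 rows, 2 for each of 44 hairpins, and gives, per the file headers, the raw read count of 1 library and a normalised value. The deposited normalised value is a CPM over the total count of the file (to within 0.00497) and was only checked.

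The members and their tiers were chosen with earlier results of these data known. Counts of all larger rows passing filterByExpr were compared with edgeR 4.0.16 (R 4.3.3, quasi-likelihood test, stage as the only term, library size set to the member reads, Benjamini-Hochberg adjustment over 40 hairpins, threshold 0.05). Standard errors come from the coefficient and its F statistic. For shares, exact two-sided permutation tests were used (scipy 1.17.1). Alternatives were other scales, DESeq2 1.42.0, limma-voom 3.58.1, other filters, summed rows, identical hairpins entered once, members alone, a replicate block, and fits without each library in turn. The fit was also run on simulated counts that gave all hairpins the same spread and changed only members with higher counts. That run does not bear on low-count hairpins such as Chr16_619. Replicates differed by more than sampling noise (chi-square over degrees of freedom 41.3 to 133). Values were given, by rule, for ranks 1 to 10, for hairpins past the threshold and for those that failed the filter. Library 1 to 3 are the replicate numbers in the titles.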

Additional observations from a re-analysis of the deposited data

Results flagged for a closer look

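The smaller rows of the hairpins were used here only in an alternative that sums both rows, and they hold reads of their own: 21 of the 40 hairpins had more than 3 reads on the smaller row in every library. There was no control library to set this level against. Single libraries far from the others, such as larval library 2 for rank 30, were not tested, since 3 libraries are too few for that.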

How the results depend on the processing

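The number of hairpins higher in pupae, 7, moved by over 1.5 times to 1 with upper-quartile factors, 11 with file totals and 3 with ranks 1 and 2 left out of the scale. The number lower, 6, moved to 12 with upper-quartile factors and 2 with file totals. Leaving out 1 library gave 2 to 7 higher and 3 to 6 lower, with 2 and 4 without larval library 1, 2 and 3 without larval library 3, and 3 and 4 without pupal library 3. Of the 13 calls, TMM factors and both DESeq2 fits kept 13, RLE factors 11, file totals 9 and upper-quartile factors 7. Fits without larval library 1, 2 or 3 kept 5, 10 and 5 of the 13. Fits without pupal library 1, 2 or 3 kept 10, 10 and 6. Only 5 of the 13 calls were kept in all of these fits. Of 319 alternative values of the 16 fold changes followed, 255 kept direction and side of the threshold. With the direction kept, 50 lost the call and 6 gained it. The direction was reversed in 8. With upper-quartile factors the reversed ones were ranks 1 (-0.47), 4 (-0.32), 6 (-0.097) and 16 (-0.0069). Ranks 4, 6 and 16 thereby also lost their calls. Rank 10 reversed with TMM factors (0.097), with file totals (0.25), without larval library 3 (0.038) and without pupal library 3 (0.035), with a range of -0.19 to 0.038 without 1 library. With upper-quartile factors rank 10 passed the test as lower (-0.97, edgeR adjusted p = 0.017). The causes were not tested.

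The replicate block gave 6 higher and 5 lower and kept 9 of the 13 calls. Larval and pupal libraries of the same number had deviations with r = 0.016, -0.12 and -0.21 over 29 hairpins, and their own number was the best match for 0 of 6 libraries, so the numbers were not taken as pairs. The difference in the number of hairpins that hold 90% of the member reads, -0.33, turned to 1.33 for 80% of the reads (4.67 in larvae, 6 in pupae, exact permutation p = 0.1); it ran from -0.50 to 0 without 1 library. The difference in the members' share of reads kept its direction throughout (1.56 to 2.35 points without 1 library), as did that of the top tier (-8.86 to -4.52 without 1 library, -12.9 with the tier drawn from 50000 reads). Exact tests of 3 libraries against 3 cannot pass 0.05. Depth limits ranks 26 to 40 most.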
